A study of Mus musculus with 15 samples.

Results

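Transcripts of adult oocytes that had matured in culture up to metaphase II (MII, where an egg waits for sperm) were compared with those of immature oocytes at the germinal vesicle (GV) stage, when the nucleus is intact and meiosis is arrested in prophase. The comparison rests on 4 of the 15 arrays of the series, chosen by their labels as 2 of in vitro matured MII oocytes and 2 of GV oocytes. Both groups came from B6D2F1 hybrid females aged 7 to 8 weeks that had received PMSG, a hormone that drives follicle growth, 48 h before the GV oocytes were collected. The oocytes of the MII group had then spent 16 h in Gmat medium, and the GV group had not been cultured. Hyaluronidase had been used on both to strip the surrounding somatic cumulus cells. Each array was hybridised with RNA amplified from a pool of 150 oocytes after selection of poly(A)+ RNA. The number of animals behind a pool and whether the pools of a group came from separate animals are not stated in the labels, so the spread behind the p-values is that between arrays and may be technical. Below, "MII" stands for the in vitro matured oocytes unless in vivo is written, and levels are log2 normalized signals listed for array 1 and then array 2 of a group.

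A grown oocyte stores its mRNA before it resumes meiosis, and transcription is silent during maturation. As meiosis resumes, some stored mRNAs lose their poly(A) tail and are degraded, while others gain a longer tail and are translated to drive the spindle, the arrest at metaphase II and later the start of development. Because the assay selected RNA by its poly(A) tail, a lower level can mean fewer transcripts or shorter tails. In the same way a higher level can mean more transcripts relative to others or longer tails. These cannot be told apart here.

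The 2 groups differed in brightness before scaling. A deposited intensity of 200 was exceeded by 4882 and 2753 probe sets on the MII arrays, against 9819 and 9696 on the GV arrays. Array medians were 11.7 and 6.22 at MII, against 25.3 and 20.4 in GV oocytes, and MII array 2 was among the 4 dim arrays of the series. The signal of the 3' Gapdh control exceeded that of its 5' control 20.6 and 2.27 times at MII, against 13.7 and 17.7 times in GV oocytes. All values below are quantile normalized, which gives every array the same distribution, so they rank a gene within its array and do not show a change in total mRNA. Across the tested probe sets, replicate arrays correlated at 0.837 at MII and 0.958 in GV oocytes, and arrays of the 2 stages at 0.661 to 0.742. All 10 oocyte markers averaged above the filter level of 3.07 at both stages. Their normalized signals, summed on the linear scale, came to 28838 and 18549 at MII, against 67906 and 75742 in GV oocytes. In a test over all 45037 probe sets without a filter, 2741 probe sets fell and 3210 rose. Of the 10 oocyte markers 6 fell and 0 rose in it.

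Markers of other cell types were tested over the same 45037 probe sets, of which 3210 rose and 2741 fell. The normalized signals of 24 cumulus and granulosa markers, summed on the linear scale, came to 856 and 1200 at MII, against 483 and 488 in GV oocytes, and 4 of the 24 rose. These were Has2, the hyaluronan synthase of the expanding cumulus, Ptgs2, which was picked out after its values were seen, Nr5a2 and Kitl, the ligand of Kit, with 8.05 and 9.11 at MII, against 6.11 and 5.47 in GV oocytes. Has2 had 5.30 and 6.74 at MII, against 3.19 and 3.34 in GV oocytes (log2 difference 2.76, adjusted p = 0.0154). The gonadotropin receptor Fshr (log2 difference -0.78, adjusted p = 0.789) and the inhibin subunit Inha (-1.96, adjusted p = 0.344) did not pass. Gja1 had the largest difference of the 24, a fall that did not pass (log2 difference -3.72, adjusted p = 0.0797). Ptx3 (-1.03, adjusted p = 0.686) and Tnfaip6 (1.82, adjusted p = 0.547) did not pass either. Of the 24, 13 averaged above the filter level at MII and 17 in GV oocytes. Sums for 17 leukocyte markers were 235 and 213 at MII, against 108 and 125 in GV oocytes, and none of the 17 passed limma's test. Sums for 13 oviduct and epithelial markers were 3455 and 3493 at MII, against 1441 and 1781 in GV oocytes, and the 1 that rose was Cdh1, E-cadherin, which oocytes also make, with 11.69 and 11.71 at MII, against 10.34 and 10.66 in GV oocytes. Cdh1 carried most of this sum, and the other 12 markers came to 146 and 136 at MII, against 144 and 160 in GV oocytes. Without Kitl the cumulus and granulosa markers came to 591 and 648 at MII, against 415 and 444 in GV oocytes. Among 14 theca, stroma and blood markers 1 rose, Pdgfra, with 5.07 and 5.14 at MII, against 0.83 and 1.38 in GV oocytes, and the sums were 158 and 166 at MII, against 101 and 110 in GV oocytes. RNA from a few remaining somatic cells and RNA of the oocyte cannot be told apart in such pools, and the part of these cells in the rises below was not tested. Leaving out single arrays and other scalings were run with the filter on low signal. Cdh1 did not pass without GV array 1 (adjusted p = 0.0974) or MII array 2 (adjusted p = 0.0591). Has2 did not pass without MII array 2 (adjusted p = 0.0761). Nr5a2 did not pass without GV array 1 (adjusted p = 0.0759) or MII array 2 (adjusted p = 0.0534). With median scaling Nr5a2 did not pass. Another Nr5a2 probe set was called lower at MII (log2 difference -2.37, adjusted p = 0.0303).

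The MII and GV arrays differed widely in both directions on this relative scale. Stage, the 16 h in culture and array brightness went together in this design, and they cannot be told apart. Of 12028 genes tested with limma, 1549 were lower at MII (12.9%) and 2219 were higher (18.4%) at an adjusted p below 0.05. These shares are the background against which the gene lists below are read, and brackets after a list give the median log2 difference of its tested members, the number on the array before the filter on low signal, and the counts called without MII array 2. Falls were larger than rises, with a median log2 difference of -3.05 among lower genes and 1.91 among higher ones, against 0.13 over all genes tested. A difference of at least 16-fold was reached by 436 lower and 15 higher genes. In 284 of the lower genes the MII mean lay under the filter level, and in 64 of the higher genes the GV mean did, so the size of those differences is imprecise. The median SD between the 2 replicates was 0.529 at MII and 0.206 in GV oocytes. With 2 arrays against 2, an exact permutation test of a single gene cannot go below 0.333, so the calls rest on the spread pooled over the 6 groups of the series. The 2 MII arrays did not overlap the 2 GV arrays in 8263 of the 12028 genes (68.7%), counting either direction. Groups that do not overlap were thus usual here and do not single out a gene named below. Without MII array 2, 1101 genes were lower and 1585 higher, of which 1013 and 1522 were also called with both arrays.

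The direction of the rises depended on how arrays were scaled. With the intensities as deposited, the median gene shifted by -1.93, 3443 genes were lower and only 6 higher. With each array's median moved to a common value the median gene shifted by -0.52, with 2545 genes lower and 838 higher. Falls were called under all 3 scalings in 1496 genes (12.4%), and rises in 6 (0.0499%). The median gene shifted down under both other scalings, so these favour falls, and the count of 1496 does not test them. Rises after both quantile normalization and median scaling were called in 792 genes (6.58%). Of the 51 gene lists below, 23 had more rises than falls, and this held in 5 of them after median scaling and in 0 on the deposited scale. The 5 were growth factors and Kit signalling, cohesin and condensin, and dormant mRNAs, with RNA-binding regulators, and deacetylases and sirtuins. In the rest of the 23, rises outnumbered falls after quantile normalization only. A gene said below to have risen was therefore higher relative to the other transcripts of its array. None of the genes named as risers passed as higher with the values as deposited, except the 6 named next, which were chosen after their values were seen. They were A930004D18Rik, Gm26760, Hivep2, Kynu, ND5 and Snhg8. ND5, a respiratory chain subunit encoded by the mitochondrial genome, had 11.93 and 13.26 at MII, against 8.21 and 9.66 in GV oocytes (log2 difference 3.66, SE 0.59, adjusted p = 0.00041), and before scaling its deposited values gave a log2 difference of 2.10 (adjusted p = 0.0155). Kynu, kynureninase of tryptophan breakdown, had 5.34 and 7.34 at MII, against 1.01 and 1.84 in GV oocytes, and the snoRNA host gene Snhg8 had 5.64 and 7.69 at MII, against 2.41 and 1.36 in GV oocytes. In all 6 genes the groups did not overlap, as in 68.7% of all genes tested. In ND5 the signal was strong at both stages, whereas the other 5 genes were near or under the filter level in GV oocytes.

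**Figure D1:**
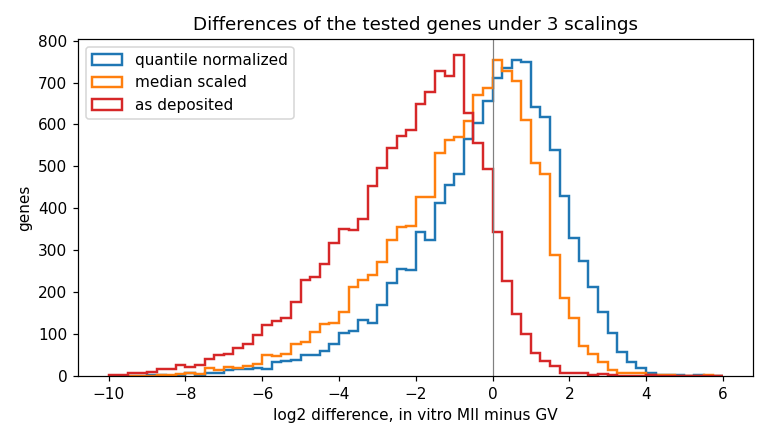
Histogram of the log2 difference (in vitro MII minus GV) of the 12028 tested genes in bins of 0.25, drawn for quantile normalized, median scaled and deposited values. The median gene lies at 0.13 after quantile normalization, at -0.52 after median scaling and at -1.93 as deposited, and the long left tail is present under each.

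The 12 largest falls with both group means above the filter level included genes of the spindle, secretion and ribosome. Tacc3, a spindle and centrosome protein, had 1.10 and 6.88 at MII, against 11.63 and 11.999 in GV oocytes (log2 difference -7.82, SE 1.41, adjusted p = 0.000848), so that its 2 MII arrays were themselves far apart. Stx5a, a syntaxin of the Golgi, had 5.30 and 4.76 at MII, against 12.19 and 12.19 in GV oocytes (log2 difference -7.16, SE 0.62, adjusted p = 5.85e-06), and here the replicates lay close together. Copb2, a coatomer subunit, had 2.41 and 5.64 at MII, against 10.81 and 11.53 in GV oocytes, and Tubb4b, a beta-tubulin, had 5.57 and 3.94 at MII, against 11.67 and 12.12 in GV oocytes. The centrosomal kinase Nek2 had 5.67 and 1.84 at MII, against 10.81 and 10.69 in GV oocytes. The remaining falls were Cpsf4l (-7.95), the retinol dehydrogenase Rdh11 (-7.85), the apoptosis inhibitor Aven (-7.54), the cyclophilin-like Ppil3 (-7.44), the lipid transporter Mfsd2a (-7.42), the ribosomal protein Rpl19 (-7.15) and the RNA polymerase III subunit Polr3a (-6.96). Aven did not pass without MII array 1 (adjusted p = 0.0911). Rdh11 did not pass without MII array 2 (adjusted p = 0.0877). Another Polr3a probe set was called higher at MII (log2 difference 3.26, adjusted p = 0.0424).

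The 12 largest rises with both group means above the filter level lay between 3.80 and 4.33. Rap2c, a small GTPase related to Ras, had 9.62 and 10.44 at MII, against 5.68 and 5.72 in GV oocytes (log2 difference 4.33, SE 0.65, adjusted p = 0.000247). Chd1, a chromatin remodeller, had 8.52 and 10.37 at MII, against 4.68 and 5.84 in GV oocytes (log2 difference 4.18, SE 1.10, adjusted p = 0.0103), and Sec24a, a cargo adaptor of COPII vesicles, had 9.31 and 10.80 at MII, against 5.68 and 6.10 in GV oocytes. Ric1, part of an exchange factor for Rab6, had 10.66 and 11.17 at MII, against 6.90 and 7.32 in GV oocytes, the closest replicates among these 4. In each of the 4, MII array 2, the dim array, was the higher of the MII arrays. The others were the zinc finger gene Zbtb1 (4.12), Clvs2 (3.93), 5730403I07Rik (3.91), the nucleotide sugar enzyme Uap1 (3.90), Tmem255a (3.85), Lipo3 (3.82), Mfap3l (3.81) and Nudt12. Chd1 did not pass without GV array 1 (adjusted p = 0.0899) or MII array 2 (adjusted p = 0.113). Nudt12 did not pass without GV array 1 (adjusted p = 0.0518), GV array 2 (adjusted p = 0.0565) or MII array 2 (adjusted p = 0.094).

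Transcripts of the egg coat fell. The zona pellucida is the glycoprotein coat to which sperm bind, and the oocyte secretes it while it grows. Zp3 had 9.25 and 8.77 at MII, against 13.04 and 13.26 in GV oocytes (log2 difference -4.14, SE 0.39, adjusted p = 8.91e-06). Zp2 had 8.59 and 7.82 at MII, against 13.17 and 12.85 in GV oocytes (log2 difference -4.80, SE 0.50, adjusted p = 1.83e-05), and Zp1 had 7.97 and 7.15 at MII, against 11.28 and 12.21 in GV oocytes (log2 difference -4.18, SE 0.72, adjusted p = 0.000639). In all 3 genes both MII arrays lay below both GV arrays. Of all genes tested, 68.7% had no overlap in either direction. Figla, the helix-loop-helix factor that is known to bind E-boxes in zona promoters and activate them, had 0.51 and 4.82 at MII, against 7.05 and 7.27 in GV oocytes (log2 difference -4.50, SE 1.10, adjusted p = 0.0065). Nobox, a homeobox factor of oocyte growth, had 6.51 and 6.82 at MII, against 9.52 and 10.89 in GV oocytes (log2 difference -3.54, SE 0.60, adjusted p = 0.000566). Gja4, the gap junction protein that couples the oocyte to its granulosa cells, had 6.68 and 5.02 at MII, against 11.22 and 12.15 in GV oocytes (log2 difference -5.83, SE 0.72, adjusted p = 6.45e-05). Of the zona and egg surface list 6 of 14 tested genes fell and 1 rose (median -1.49, 16 on the array, 6 lower and 1 higher without MII array 2). The riser was the integrin Itga6 (log2 difference 0.82, adjusted p = 0.00643). Figla did not pass without MII array 1 (adjusted p = 0.0681) or GV array 2 (adjusted p = 0.0529). Itga6 did not pass without GV array 2 (adjusted p = 0.0878).

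The promoter window of Zp3 is shown because Figla is known to bind E-boxes in zona promoters. Whether the fall of Figla bears on the falls of the zona transcripts was not tested. It is RefSeq sequence of mouse build GRCm38.p6 on the forward strand, chr5:135979855-135980154, 250 bases before the gene start and 50 after it, and capitals mark the E-box letters CANNTG.
Zp3: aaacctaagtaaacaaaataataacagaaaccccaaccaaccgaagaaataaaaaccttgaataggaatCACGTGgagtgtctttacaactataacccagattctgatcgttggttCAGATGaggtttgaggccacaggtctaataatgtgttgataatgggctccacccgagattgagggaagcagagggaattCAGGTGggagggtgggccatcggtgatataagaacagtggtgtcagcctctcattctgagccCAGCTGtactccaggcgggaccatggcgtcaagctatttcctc
It held 4 matches, whose first bases lie 181, 134 and 55 bases before the start and 7 bases into the transcript. The motif reads the same on both strands. It was present in 72.3% of the 32851 windows of this length in the table. A match is a description of the letters and not of binding.

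Genes of oocyte growth factors and Kit signalling were called in 4 of 11 cases, against 31.3% of all genes. Gdf9 had 13.37 and 12.07 at MII, against 13.60 and 13.50 in GV oocytes, and Bmp15 had 12.002 and 11.36 at MII, against 10.54 and 12.07 in GV oocytes. Both encode growth factors that the oocyte secretes to its granulosa cells, and neither passed (log2 differences -0.83 and 0.38, adjusted p = 0.129 and 0.616). Of the growth factor and Kit list 1 of 11 tested genes fell and 3 rose (median 0.38, 12 on the array, 0 lower and 3 higher without MII array 2). Kit, the receptor tyrosine kinase of the oocyte, was lower (log2 difference -1.23, adjusted p = 0.0176), and Bmpr2, a receptor for such growth factors, was higher (log2 difference 1.24, adjusted p = 0.00022). Among oocyte transcription factors 3 of 18 tested genes fell and 2 rose (median -0.27, 20 on the array, 3 lower and 3 higher without MII array 2). Relative to all genes the median of that list was -0.40 after quantile normalization and 0.15 as deposited, so its sign depended on the scaling. Lhx8, a further factor of oocyte growth, had 9.25 and 10.50 at MII, against 12.12 and 12.04 in GV oocytes. Kit did not pass without GV array 1 (adjusted p = 0.0616), GV array 2 (adjusted p = 0.11) or MII array 2 (adjusted p = 0.109). Gdf9 did pass as lower with array weights (adjusted p = 0.0352), and without MII array 1 its log2 difference was -1.48. Another Bmp15 probe set was called lower at MII (log2 difference -2.60, adjusted p = 0.00911).

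The subcortical maternal complex is a protein assembly under the egg membrane that the first cleavages need. Ooep had 9.80 and 9.75 at MII, against 13.32 and 13.29 in GV oocytes (log2 difference -3.53, SE 0.26, adjusted p = 2.17e-06), with close replicates in both groups. Nlrp5, also called Mater, had 11.32 and 11.40 at MII, against 13.12 and 13.26 in GV oocytes (log2 difference -1.83, SE 0.30, adjusted p = 0.000469). Tle6 had 8.71 and 7.72 at MII, against 12.23 and 12.70 in GV oocytes (log2 difference -4.25, SE 0.64, adjusted p = 0.000245), and Padi6, needed for the cytoplasmic lattices, had 7.07 and 6.87 at MII, against 11.98 and 12.62 in GV oocytes (log2 difference -5.33, SE 0.90, adjusted p = 0.000548). Khdc3 had 6.38 and 6.31 at MII, against 7.42 and 8.56 in GV oocytes, and did not pass (log2 difference -1.65, adjusted p = 0.205). Of the whole maternal effect list 11 of 28 tested genes fell and 1 rose (median -1.14, 28 on the array, 8 lower and 1 higher without MII array 2), the riser being Bcas2 (log2 difference 3.02, adjusted p = 0.00309). Zar1, a maternal effect gene that binds stored mRNA, had 11.75 and 11.49 at MII, against 12.39 and 13.24 in GV oocytes, and did not pass (log2 difference -1.20, adjusted p = 0.0666), nor did the oocyte linker histone H1f8 (-0.80, adjusted p = 0.615). With median scaling Bcas2 did not pass. Khdc3 did pass as lower on the deposited scale (adjusted p = 0.022), after median scaling (adjusted p = 0.0314) and without the dim arrays (adjusted p = 0.033). Zar1 did pass as lower without the dim arrays (adjusted p = 0.0207).

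In the oocyte Nlrp and Oas1 families 5 of 15 tested genes fell and 2 rose (median -0.69, 15 on the array, 3 lower and 1 higher without MII array 2). Nlrp14 had 10.46 and 10.24 at MII, against 13.67 and 13.30 in GV oocytes (log2 difference -3.14, SE 0.30, adjusted p = 1.02e-05). Oas1c had 7.60 and 7.41 at MII, against 12.48 and 12.58 in GV oocytes (log2 difference -5.02, SE 0.42, adjusted p = 5.05e-06) and Oas1h had 6.37 and 7.10 at MII, against 10.32 and 10.70 in GV oocytes. Nlrp4c moved the other way with 9.16 and 8.63 at MII, against 7.64 and 6.82 in GV oocytes (log2 difference 1.67, SE 0.43, adjusted p = 0.00848). Members of both families are close paralogs, and probe sets may cross-hybridise between them. Nlrp4c did not pass without MII array 1 (adjusted p = 0.0647) or GV array 2 (adjusted p = 0.116). With median scaling Nlrp4c did not pass.

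**Figure D2:**
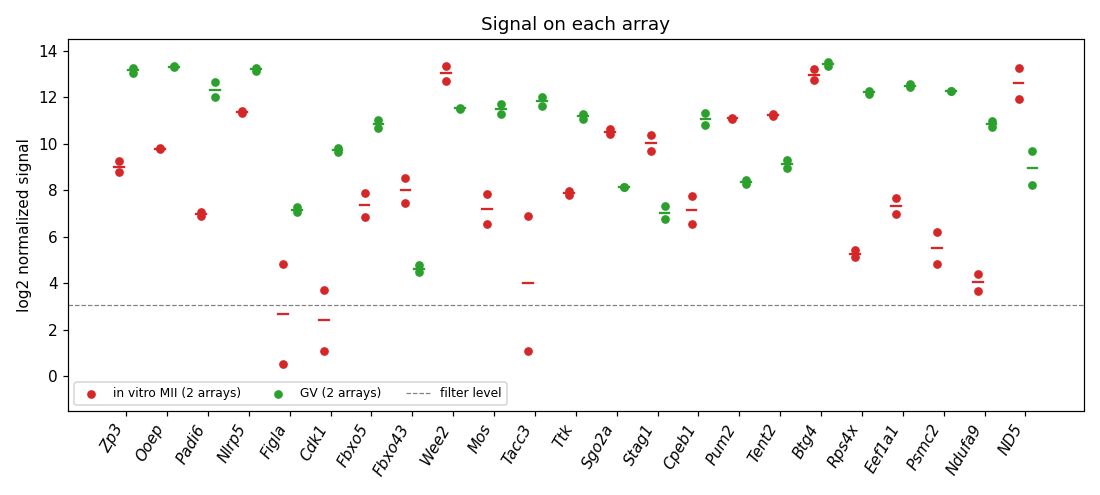
Log2 normalized signal of 23 genes on the 2 in vitro MII arrays (left of each pair) and the 2 GV arrays (right). Points are arrays, bars are group means and the dashed line is the filter level of 3.07. Zp3, Ooep, Padi6, Rps4x, Eef1a1, Psmc2 and Ndufa9 are lower on both MII arrays, Pum2, Tent2, Stag1 and ND5 are higher, and the MII arrays of Tacc3 and Figla lie far apart.

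Genes of the prophase arrest were mixed. High cAMP in the oocyte keeps protein kinase A active and CDK1 off, and phosphodiesterase and CDC25B end that block. Cdc25b, the phosphatase that activates CDK1, had 3.80 and 3.07 at MII, against 7.44 and 8.09 in GV oocytes (log2 difference -4.33, SE 0.97, adjusted p = 0.0037), and Gnas, the G protein alpha subunit that stimulates cAMP synthesis, had 7.59 and 8.09 at MII, against 10.29 and 10.67 in GV oocytes (log2 difference -2.64, SE 0.33, adjusted p = 7.18e-05). Prkar2b, a regulatory subunit of protein kinase A, had 10.51 and 10.39 at MII, against 8.58 and 8.20 in GV oocytes (log2 difference 2.06, SE 0.30, adjusted p = 0.000191). In each of these 3 the groups did not overlap. The phosphodiesterase Pde3a (-1.25, adjusted p = 0.19) and the receptor Gpr3 (-0.20, adjusted p = 0.914) did not pass. Of the list 4 of 20 tested genes fell and 6 rose (median 0.49, 23 on the array, 2 lower and 5 higher without MII array 2). Pde3a did pass as lower on the deposited scale (adjusted p = 0.0166) and after median scaling (adjusted p = 0.0367).

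CDK1 with cyclin B is the kinase that drives entry into meiosis, and the anaphase-promoting complex destroys cyclin B. Cdk1 had 1.10 and 3.70 at MII, against 9.63 and 9.82 in GV oocytes (log2 difference -7.33, SE 0.76, adjusted p = 1.88e-05), and its 2 MII arrays differed from each other by less than from the GV arrays. Ccnb2, a B-type cyclin, had 9.85 and 9.50 at MII, against 9.74 and 9.78 in GV oocytes, and did not pass (log2 difference -0.09, adjusted p = 0.902). Wee2, the oocyte kinase that inhibits CDK1, had 12.69 and 13.34 at MII, against 11.54 and 11.50 in GV oocytes (log2 difference 1.49, SE 0.30, adjusted p = 0.00168). Both inhibitors of the anaphase-promoting complex moved, in opposite directions. Fbxo5, called Emi1, had 7.88 and 6.86 at MII, against 10.67 and 11.01 in GV oocytes (log2 difference -3.47, SE 0.44, adjusted p = 8.09e-05). Fbxo43, called Emi2, which holds the metaphase II arrest, had 7.46 and 8.52 at MII, against 4.78 and 4.46 in GV oocytes (log2 difference 3.37, SE 0.59, adjusted p = 0.000726). The complex's own subunits Anapc10 (log2 difference 2.52, adjusted p = 1.71e-05) and Cdc27 (log2 difference 2.33, adjusted p = 9.16e-05) rose, and of 14 subunits tested 3 fell and 4 rose. Over the cyclin, CDK and anaphase-promoting complex list 9 of 37 tested genes fell and 12 rose (median -0.09, 38 on the array, 7 lower and 10 higher without MII array 2). Mos, the kinase that activates MAP kinase for the arrest, had 7.84 and 6.55 at MII, against 11.27 and 11.70 in GV oocytes, and did not pass (log2 difference -4.29, SE 1.77, adjusted p = 0.0887). Its groups did not overlap, as in 68.7% of all genes tested. Another Wee2 probe set was called lower at MII (log2 difference -1.68, adjusted p = 0.000172).

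Spindle genes moved in both directions. Mouse oocytes build their spindle without centrioles, from microtubule organising centres and motors. Of the spindle pole and microtubule list 12 of 51 tested genes fell and 8 rose (median -0.82, 53 on the array, 8 lower and 6 higher without MII array 2). Nusap1, which bundles spindle microtubules, had 8.000 and 7.83 at MII, against 12.21 and 11.98 in GV oocytes (log2 difference -4.18, SE 0.36, adjusted p = 5.85e-06), and Birc5, survivin of the chromosomal passenger complex, had 8.81 and 8.42 at MII, against 10.93 and 11.91 in GV oocytes. Kif5b, a transport kinesin, had 8.79 and 9.31 at MII, against 6.17 and 6.30 in GV oocytes (log2 difference 2.81, SE 0.40, adjusted p = 0.000163). Aurka, the kinase of the spindle poles, did not pass (log2 difference -2.63, adjusted p = 0.0841), nor did Aurkc (log2 difference -1.14, adjusted p = 0.269) or Tpx2 (log2 difference -0.39, adjusted p = 0.558). Of 36 kinesins tested 5 fell and 6 rose. Aurka did pass as lower on the deposited scale (adjusted p = 0.0418) and with array weights (adjusted p = 0.0308). Without MII array 1 its log2 difference was -3.77. Aurkc did pass as lower with only the compared arrays (adjusted p = 0.0425).

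The spindle checkpoint delays anaphase until every kinetochore is attached. Of its genes and those of the kinetochore 12 of 37 tested genes fell and 5 rose (median -0.49, 39 on the array, 9 lower and 5 higher without MII array 2). Ttk, the Mps1 kinase at the top of the checkpoint, had 7.79 and 7.96 at MII, against 11.08 and 11.27 in GV oocytes (log2 difference -3.30, SE 0.38, adjusted p = 4.05e-05). Bub3 had 10.06 and 9.62 at MII, against 11.88 and 11.94 in GV oocytes (log2 difference -2.06, SE 0.27, adjusted p = 9.16e-05), and the kinetochore protein Cenpq had 5.80 and 4.87 at MII, against 10.66 and 10.65 in GV oocytes (log2 difference -5.31, SE 0.72, adjusted p = 0.000121). These 3 were lower on both MII arrays than on either GV array. Bub1b had 13.39 and 12.71 at MII, against 13.23 and 13.36 in GV oocytes, and did not pass (log2 difference -0.25, adjusted p = 0.634).

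Cohesin holds sister chromatids together until shugoshin no longer shields it from separase. Of the cohesin and condensin list 6 of 30 tested genes fell and 12 rose (median 0.67, 32 on the array, 4 lower and 12 higher without MII array 2). The counts were 6 lower and 8 higher after median scaling and 7 and 0 on the deposited scale. Stag1 had 9.70 and 10.37 at MII, against 7.30 and 6.75 in GV oocytes (log2 difference 3.01, SE 0.38, adjusted p = 7.91e-05), Stag2 had 10.18 and 10.74 at MII, against 7.87 and 7.94 in GV oocytes (log2 difference 2.56, SE 0.36, adjusted p = 0.00017), and both encode cohesin subunits. Sgo2a, the shugoshin that protects centromeric cohesin in meiosis, had 10.40 and 10.61 at MII, against 8.14 and 8.15 in GV oocytes (log2 difference 2.36, SE 0.28, adjusted p = 5.7e-05). Against these, the meiotic cohesin subunit Smc1b had 0.06 and 0.89 at MII, against 5.57 and 5.09 in GV oocytes (log2 difference -4.85, SE 0.88, adjusted p = 0.000872), with both MII arrays under the filter level. Top2a, topoisomerase II, had 5.22 and 5.14 at MII, against 9.01 and 9.25 in GV oocytes (log2 difference -3.95, SE 0.49, adjusted p = 7.13e-05). Within the list 2 of 11 core and loading genes fell and 5 rose, against 2 and 1 of 8 condensin genes.

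The actin machinery moves the spindle to the cortex for polar body extrusion, and of its genes 4 of 30 tested genes fell and 8 rose (median -0.10, 31 on the array, 5 lower and 6 higher without MII array 2). Actg1, cytoplasmic gamma-actin, had 7.29 and 7.21 at MII, against 10.69 and 10.52 in GV oocytes (log2 difference -3.35, SE 0.42, adjusted p = 7.64e-05). Cttn, cortactin, had 10.19 and 10.79 at MII, against 8.000 and 7.17 in GV oocytes (log2 difference 2.91, SE 0.46, adjusted p = 0.000329), and Tmod3, which caps filament ends, had 7.99 and 8.58 at MII, against 5.49 and 5.22 in GV oocytes (log2 difference 2.93, SE 0.37, adjusted p = 7.13e-05). Actb, beta-actin, had 6.43 and 8.01 at MII, against 7.48 and 7.04 in GV oocytes, and the groups overlapped (log2 difference -0.04, adjusted p = 0.969). Actb did pass as lower on the deposited scale (adjusted p = 0.0277).

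Regulators of stored mRNA changed in both directions. Cpeb1, which binds the cytoplasmic polyadenylation element, had 7.74 and 6.56 at MII, against 10.78 and 11.33 in GV oocytes (log2 difference -3.91, SE 0.54, adjusted p = 0.000143). Pum2, a Pumilio repressor, had 11.06 and 11.11 at MII, against 8.42 and 8.26 in GV oocytes (log2 difference 2.75, SE 0.31, adjusted p = 4.08e-05), with close replicates in both groups. Larp4, which binds poly(A), had 11.86 and 12.01 at MII, against 9.63 and 10 in GV oocytes (log2 difference 2.12, SE 0.30, adjusted p = 0.000167). Of these RNA-binding regulators 7 of 38 tested genes fell and 14 rose (median 0.39, 41 on the array, 5 lower and 10 higher without MII array 2). Ybx2, the Y-box protein that coats stored mRNA, had 5.61 and 6.55 at MII, against 7.76 and 8.59 in GV oocytes, and did not pass (log2 difference -2.10, adjusted p = 0.0586), while its relative Ybx3 fell (log2 difference -2.79, adjusted p = 0.000853). Tent2, the cytoplasmic poly(A) polymerase also called Gld2, had 11.20 and 11.25 at MII, against 9.31 and 8.93 in GV oocytes (log2 difference 2.10, SE 0.25, adjusted p = 5.39e-05). Paip2, which inhibits poly(A)-binding protein, had 7.88 and 8.51 at MII, against 12.74 and 13.03 in GV oocytes (log2 difference -4.69, SE 0.61, adjusted p = 9.11e-05), and Paip1, which aids it, had 12.75 and 12.86 at MII, against 11.58 and 11.42 in GV oocytes (log2 difference 1.30, SE 0.17, adjusted p = 0.000115). Pabpc1l, the embryonic poly(A)-binding protein, fell (log2 difference -2.13, adjusted p = 0.000658). Of poly(A) polymerases and binding proteins 8 of 30 tested genes fell and 6 rose (median -0.55, 34 on the array, 7 lower and 4 higher without MII array 2). Ybx2 did pass as lower on the deposited scale (adjusted p = 0.0069), after median scaling (adjusted p = 0.00813) and without the dim arrays (adjusted p = 0.00375).

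Deadenylation shortens poly(A) tails and precedes decay. Btg4, the adaptor that brings the CCR4-NOT deadenylase to maternal mRNA, had 13.22 and 12.71 at MII, against 13.36 and 13.51 in GV oocytes, and did not pass (log2 difference -0.47, adjusted p = 0.217). Cnot6l, a catalytic subunit, had 12.37 and 12.15 at MII, against 11.16 and 11.29 in GV oocytes (log2 difference 1.04, SE 0.22, adjusted p = 0.00236), and Cnot7, another catalytic subunit, had 13.33 and 13.18 at MII, against 12.87 and 12.75 in GV oocytes (log2 difference 0.44, adjusted p = 0.0545), which did not pass. Of 10 Cnot genes 0 fell and 4 rose, among them Cnot6l. Some of these 4 also had other probe sets called lower at MII, so for those no single direction can be given. Pan3, of a further deadenylase, rose (log2 difference 1.56, adjusted p = 0.000293), and Exosc1, an exosome subunit that degrades RNA, had 2.27 and 1.37 at MII, against 8.22 and 8.55 in GV oocytes (log2 difference -6.56, SE 1.13, adjusted p = 0.000613). Over all deadenylation and decapping genes 8 of 56 tested genes fell and 15 rose (median 0.17, 59 on the array, 6 lower and 12 higher without MII array 2), and their median relative to all genes was 0.04 after quantile normalization and -0.02 as deposited. Cnot7 did pass as higher after median scaling (adjusted p = 0.00943) and without the dim arrays (adjusted p = 0.0362). Another Cnot7 probe set was called higher at MII (log2 difference 2.28, adjusted p = 0.000181). The deadenylation and decapping list had 16 lower and 5 higher after median scaling, and 20 and 0 on the deposited scale.

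Dormant maternal mRNAs are stored with short tails in the GV oocyte and recruited at maturation, and of the 26 tested 1 fell and 8 rose (median 0.29, 26 on the array, 1 lower and 8 higher without MII array 2). Their median relative to all genes was 0.16 after quantile normalization and 1.22 as deposited. Orc6, of the origin recognition complex, had 11.33 and 11.41 at MII, against 9.62 and 9.40 in GV oocytes (log2 difference 1.86, SE 0.25, adjusted p = 0.00011), and Hprt, of purine salvage, had 10.82 and 11.08 at MII, against 8.92 and 9.01 in GV oocytes (log2 difference 1.98, SE 0.35, adjusted p = 0.000671). Fbxo43, given above, was the third of the clearest. Cdc6, which loads the replicative helicase, fell with 7.05 and 6.77 at MII, against 9.81 and 9.29 in GV oocytes (log2 difference -2.64, SE 0.46, adjusted p = 0.000671). Plat, tissue plasminogen activator, had 12.43 and 10.79 at MII, against 13.18 and 13.11 in GV oocytes, and did not pass (log2 difference -1.54, adjusted p = 0.0746). Plat did pass as lower without the dim arrays (adjusted p = 0.0301).

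Small RNA genes split. Of the list 6 of 26 tested genes fell and 5 rose (median -0.73, 32 on the array, 3 lower and 3 higher without MII array 2). Gtsf1, a partner of PIWI proteins, had 7.66 and 7.56 at MII, against 12.60 and 12.66 in GV oocytes (log2 difference -5.02, SE 0.52, adjusted p = 1.89e-05). Drosha, which cuts primary microRNAs, had 7.91 and 8.64 at MII, against 10.92 and 10.55 in GV oocytes (log2 difference -2.46, SE 0.47, adjusted p = 0.00126), and Ago3 had 9.54 and 8.67 at MII, against 7.09 and 6.38 in GV oocytes (log2 difference 2.37, SE 0.38, adjusted p = 0.000407). Dicer1, which makes the endogenous small interfering RNAs of mouse oocytes, had 10.96 and 10.80 at MII, against 9.94 and 9.02 in GV oocytes (log2 difference 1.40, SE 0.30, adjusted p = 0.00254). Dicer1 did not pass without GV array 2 (adjusted p = 0.0535). With median scaling Ago3 and Dicer1 did not pass. Another Dicer1 probe set was called lower at MII (log2 difference -4.07, adjusted p = 1.18e-05).

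Ribosomal protein transcripts fell widely. Of cytosolic ribosomal proteins 31 of 46 tested genes fell and 2 rose (median -3.58, 49 on the array, 25 lower and 2 higher without MII array 2), with the median set against 0.13 over all genes. Rps4x had 5.42 and 5.11 at MII, against 12.25 and 12.14 in GV oocytes (log2 difference -6.93, SE 0.46, adjusted p = 1.03e-06), Rps18 had 6.57 and 5.67 at MII, against 11.62 and 11.64 in GV oocytes (log2 difference -5.51, SE 0.48, adjusted p = 5.85e-06) and Rpl7a had 7.53 and 7.21 at MII, against 12.19 and 12.32 in GV oocytes (log2 difference -4.89, SE 0.35, adjusted p = 1.79e-06). In each of these 3 genes, from both ribosomal subunits, the replicates lay close together and the stages far apart. By subunit, 16 of 21 Rps genes fell (median -4.26) and 15 of 25 Rpl genes did (median -2.53). The 2 that rose were Rps27l, a relative of Rps27, with 10.90 and 11.71 at MII, against 8.29 and 8.67 in GV oocytes, and Rpl13a (log2 difference 1.39, adjusted p = 0.00426). Ribosomal protein genes have many near-identical copies in the genome, which their probe sets may also detect. Rpl13a did not pass without GV array 1 (adjusted p = 0.0739). With median scaling Rpl13a did not pass. Of the other Rpl13a probe sets, 3 were called lower at MII, the clearest with a log2 difference of -4.72 (adjusted p = 6.8e-06).

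Translation factors followed in part. Of initiation and elongation factors 21 of 51 tested genes fell and 7 rose (median -1.43, 54 on the array, 17 lower and 4 higher without MII array 2). Eef1a1, the elongation factor that delivers aminoacyl-tRNA, had 6.98 and 7.65 at MII, against 12.43 and 12.55 in GV oocytes (log2 difference -5.17, SE 0.33, adjusted p = 1.03e-06). Eif4h, a helper of the eIF4A helicase, had 4.68 and 6.23 at MII, against 12.07 and 11.96 in GV oocytes (log2 difference -6.56, SE 0.63, adjusted p = 1.13e-05), and Eif3f had 3.92 and 2.26 at MII, against 9.61 and 9.63 in GV oocytes (log2 difference -6.53, SE 0.65, adjusted p = 1.42e-05). In all 3 both MII arrays lay below both GV arrays. Of 10 eIF3 subunits 6 fell and 1 rose, the riser being Eif3i with 12.31 and 12.05 at MII, against 10.55 and 10.74 in GV oocytes. Eif4e, which binds the mRNA cap, had 12.09 and 12.38 at MII, against 11.10 and 11.07 in GV oocytes (log2 difference 1.15, SE 0.23, adjusted p = 0.00168). Eif2ak3, the kinase PERK that slows initiation under endoplasmic reticulum stress, had 7.15 and 9.02 at MII, against 4.94 and 4.85 in GV oocytes (log2 difference 3.19, SE 0.63, adjusted p = 0.00154). Another Eif4e probe set was called lower at MII (log2 difference -1.43, adjusted p = 0.0146).

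**Figure D3:**
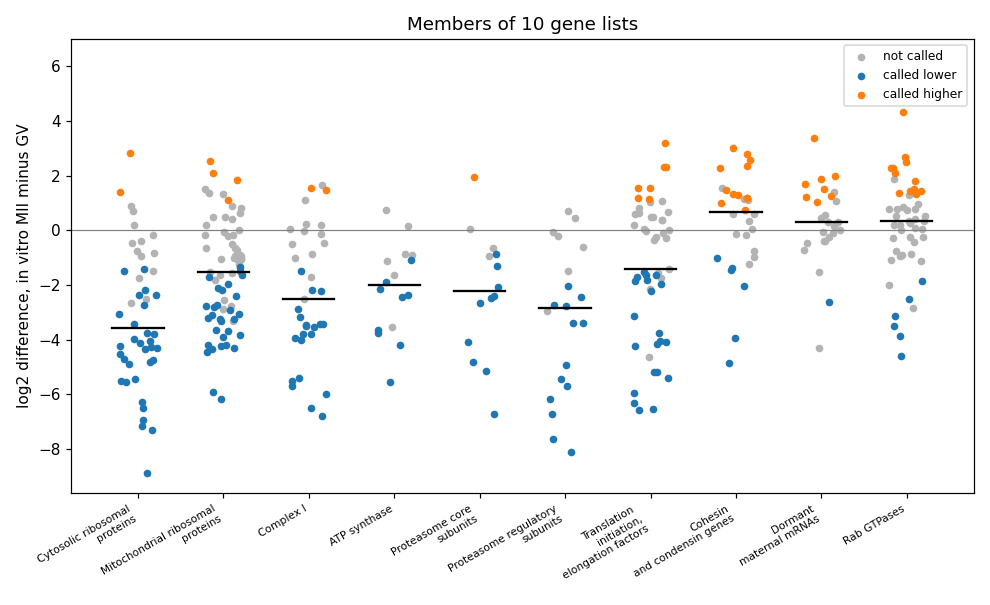
Log2 difference (in vitro MII minus GV) of each tested member of 10 gene lists. Points are genes coloured by call, black bars are list medians. The 6 ribosomal, complex I, ATP synthase and proteasome lists drawn here have medians from -3.58 to -1.52, and cohesin and condensin genes have a median of 0.67.

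Nuclear-encoded mitochondrial genes fell widely. Of mitochondrial ribosomal proteins 30 of 71 tested genes fell and 4 rose (median -1.52, 77 on the array, 23 lower and 3 higher without MII array 2), for example Mrps22 with 5.53 and 5.01 at MII, against 10.95 and 11.44 in GV oocytes (log2 difference -5.92, SE 0.47, adjusted p = 3.4e-06). Of complex I, the NADH dehydrogenase, 20 of 35 tested genes fell and 2 rose (median -2.53, 36 on the array, 18 lower and 1 higher without MII array 2). Ndufa9 had 3.68 and 4.40 at MII, against 10.95 and 10.71 in GV oocytes (log2 difference -6.79, SE 0.60, adjusted p = 6.11e-06), and Ndufv1, which binds NADH, had 4.96 and 3.97 at MII, against 10.21 and 10.14 in GV oocytes (log2 difference -5.71, SE 0.49, adjusted p = 5.85e-06). ND5, a complex I subunit encoded in the mitochondrion, was higher at MII as given above. No other mitochondrially encoded protein gene was found among the probe sets with 1 gene symbol. Complex II, succinate dehydrogenase, had 3 of its 4 subunits lower (median -4.35, 4 on the array, 2 lower and 0 higher without MII array 2), among them Sdhd with 1.26 and 1.81 at MII, against 6.13 and 6.71 in GV oocytes (log2 difference -4.88, SE 0.98, adjusted p = 0.0017). Of complex III 4 of 11 tested genes fell and 0 rose (median -1.52, 11 on the array, 3 lower and 0 higher without MII array 2), with Uqcrfs1, the Rieske protein, at 2.58 and 4.29 at MII, against 9.005 and 8.66 in GV oocytes. Of complex IV, cytochrome oxidase, 4 of 13 tested genes fell and 1 rose (median -0.88, 17 on the array, 3 lower and 1 higher without MII array 2). Cox7a2l had 7.28 and 7.25 at MII, against 11.26 and 10.92 in GV oocytes (log2 difference -3.82, SE 0.34, adjusted p = 6.11e-06), and Cox6b2, a subunit known from testis, had 8.09 and 8.64 at MII, against 5.10 and 5.29 in GV oocytes (log2 difference 3.17, SE 0.54, adjusted p = 0.000591). Of ATP synthase 9 of 16 tested genes fell and 0 rose (median -2.02, 17 on the array, 6 lower and 0 higher without MII array 2), with Atp5h at 8.47 and 8.36 at MII, against 12.15 and 11.95 in GV oocytes (log2 difference -3.63, SE 0.37, adjusted p = 1.55e-05).

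Falls outnumbered rises among genes of mitochondrial import and membranes. Of the import machinery 11 of 35 tested genes fell and 3 rose (median -0.76, 38 on the array, 8 lower and 3 higher without MII array 2). Timm17a, a channel subunit of the inner membrane translocase, had 4.14 and 1.64 at MII, against 10.66 and 10.80 in GV oocytes (log2 difference -7.84, SE 0.93, adjusted p = 5.29e-05). Of channels and dynamics genes 9 of 24 tested genes fell and 3 rose (median -0.80, 25 on the array, 6 lower and 2 higher without MII array 2). The voltage-dependent anion channels of the outer membrane moved apart. Vdac3 had 8.06 and 6.76 at MII, against 12.03 and 11.81 in GV oocytes (log2 difference -4.51, SE 0.47, adjusted p = 1.77e-05), and Vdac1 had 11.48 and 12.19 at MII, against 9.53 and 9.62 in GV oocytes (log2 difference 2.26, SE 0.34, adjusted p = 0.000231). Nrf1, a transcription factor of respiratory genes, had 6.42 and 5.89 at MII, against 9.70 and 9.47 in GV oocytes (log2 difference -3.43, SE 0.36, adjusted p = 1.89e-05).

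Metabolic enzymes changed in both directions. The GV oocyte uses pyruvate more than glucose. Of glycolysis and pyruvate genes 7 of 23 tested genes fell and 4 rose (median -0.37, 25 on the array, 3 lower and 3 higher without MII array 2). Tpi1, triosephosphate isomerase, had 3.07 and 0.46 at MII, against 8.17 and 8.19 in GV oocytes (log2 difference -6.42, SE 1.33, adjusted p = 0.00215), and Pkm, pyruvate kinase, had 4.82 and 2.02 at MII, against 8.46 and 9.40 in GV oocytes (log2 difference -5.51, SE 0.87, adjusted p = 0.000334). Pdk1, which inhibits pyruvate dehydrogenase, had 10.72 and 11.03 at MII, against 8.89 and 8.46 in GV oocytes (log2 difference 2.20, SE 0.37, adjusted p = 0.000523). Of the TCA cycle list 8 of 19 tested genes fell and 2 rose (median -1.16, 20 on the array, 7 lower and 2 higher without MII array 2). Fh1, fumarase, had 8.84 and 8.77 at MII, against 11.38 and 11.76 in GV oocytes (log2 difference -2.76, SE 0.31, adjusted p = 3.37e-05), whereas Idh1, the cytosolic isocitrate dehydrogenase, had 10.18 and 10.34 at MII, against 7.88 and 7.65 in GV oocytes (log2 difference 2.49, SE 0.32, adjusted p = 8.65e-05). Of cholesterol synthesis genes 2 of 18 tested genes fell and 4 rose (median 0.58, 21 on the array, 3 lower and 5 higher without MII array 2). Fdft1, squalene synthase, had 7.16 and 6.77 at MII, against 13.15 and 13.18 in GV oocytes (log2 difference -6.19, SE 0.36, adjusted p = 1.03e-06), and Hsd17b7, a later enzyme of the path, had 11.37 and 11.51 at MII, against 9.21 and 9.36 in GV oocytes (log2 difference 2.15, SE 0.44, adjusted p = 0.00197). Of antioxidant and glutathione enzymes 7 of 27 tested genes fell and 4 rose (median -0.77, 31 on the array, 5 lower and 3 higher without MII array 2). Glrx5, a glutaredoxin of the mitochondrion, had 7.04 and 7.17 at MII, against 11.89 and 12.05 in GV oocytes (log2 difference -4.86, SE 0.37, adjusted p = 2.51e-06), and Sod2, the mitochondrial superoxide dismutase, had 10.94 and 11.23 at MII, against 9.60 and 9.38 in GV oocytes (log2 difference 1.59, SE 0.34, adjusted p = 0.00255). Another Fdft1 probe set was called higher at MII (log2 difference 2.00, adjusted p = 0.0225).

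Proteasome transcripts fell in both the core and the cap. Of core subunits 10 of 14 tested genes fell and 1 rose (median -2.24, 19 on the array, 7 lower and 1 higher without MII array 2), and of regulatory subunits 13 of 20 tested genes fell and 0 rose (median -2.85, 21 on the array, 11 lower and 0 higher without MII array 2). Psmc2, an ATPase of the cap, had 6.20 and 4.83 at MII, against 12.26 and 12.24 in GV oocytes (log2 difference -6.74, SE 0.52, adjusted p = 2.83e-06), and 5 of 6 such ATPases fell. Psmd14, the deubiquitinase of the lid, had 0.99 and 4.11 at MII, against 10.54 and 10.76 in GV oocytes (log2 difference -8.10, SE 1.18, adjusted p = 0.000199). Psma6, of the core, had 9.43 and 9.68 at MII, against 12.30 and 12.16 in GV oocytes (log2 difference -2.67, SE 0.41, adjusted p = 0.000264), while Psmb3, also of the core, had 11.11 and 11.47 at MII, against 9.26 and 9.41 in GV oocytes (log2 difference 1.96, SE 0.31, adjusted p = 0.000373). Proteasome activators and assembly factors had 2 lower and 1 higher of 10 (median -0.29, 11 on the array, 2 lower and 1 higher without MII array 2). Of ubiquitin E1 and E2 enzymes 8 of 34 tested genes fell and 6 rose (median -0.37, 37 on the array, 8 lower and 5 higher without MII array 2), with Ube2a at 7.39 and 7.67 at MII, against 10.60 and 10.81 in GV oocytes, and Ube2d1 at 6.96 and 8.91 at MII, against 4.81 and 4.34 in GV oocytes. Of Usp deubiquitinases 11 of 47 tested genes fell and 8 rose (median -0.16, 54 on the array, 9 lower and 7 higher without MII array 2). Uchl1, an abundant ubiquitin hydrolase of the oocyte, had 7.87 and 8.21 at MII, against 11.30 and 12.04 in GV oocytes (log2 difference -3.63, SE 0.41, adjusted p = 3.66e-05), and Usp15 had 11.79 and 12.13 at MII, against 9.09 and 8.41 in GV oocytes (log2 difference 3.21, SE 0.45, adjusted p = 0.000158).

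Of chaperones 23 of 80 tested genes fell and 6 rose (median -0.39, 94 on the array, 16 lower and 3 higher without MII array 2). The Cct ring, which folds actin and tubulin, had 5 of its 8 tested subunits lower, with a median of -3.34. Cct5 had 7.06 and 5.85 at MII, against 12.28 and 12.17 in GV oocytes (log2 difference -5.77, SE 0.49, adjusted p = 5.68e-06), and Tcp1 had 7.04 and 6.77 at MII, against 11.24 and 11.16 in GV oocytes (log2 difference -4.30, SE 0.37, adjusted p = 5.61e-06). The Hsp group had 6 lower and 2 higher of 23 (median 0.18), and the Dnaj group 9 and 2 of 35 (median -0.24). Dnaja1, a cochaperone of Hsp70, had 9.80 and 9.12 at MII, against 12.94 and 13.04 in GV oocytes (log2 difference -3.53, SE 0.32, adjusted p = 7.4e-06).

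Vesicle transport genes were split. Of COPI, COPII and Golgi genes 11 of 53 tested genes fell and 13 rose (median -0.36, 55 on the array, 7 lower and 8 higher without MII array 2), the falls led by Copb2 and Stx5a above. Tmed7, a cargo receptor of early secretion, had 8.02 and 8.50 at MII, against 5.19 and 4.95 in GV oocytes (log2 difference 3.19, SE 0.39, adjusted p = 6.36e-05), and Kdelr2, which returns proteins to the endoplasmic reticulum, had 10.46 and 10.65 at MII, against 7.66 and 8.05 in GV oocytes (log2 difference 2.70, SE 0.35, adjusted p = 8.76e-05). Of Rab and related GTPases 6 of 50 tested genes fell and 12 rose (median 0.35, 64 on the array, 4 lower and 9 higher without MII array 2). Rab38 had 7.49 and 7.90 at MII, against 12.42 and 12.15 in GV oocytes (log2 difference -4.58, SE 0.42, adjusted p = 7.4e-06), and Rab5a, of early endosomes, had 9.41 and 10 at MII, against 7.21 and 6.83 in GV oocytes (log2 difference 2.68, SE 0.43, adjusted p = 0.000408).

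Splicing factors changed in both directions. Of the list 16 of 63 tested genes fell and 23 rose (median 0.26, 67 on the array, 11 lower and 17 higher without MII array 2). The counts were 19 lower and 8 higher after median scaling and 24 and 0 on the deposited scale. Snrpf, a core protein of the spliceosomal snRNPs, had 10.10 and 10.43 at MII, against 8.18 and 7.20 in GV oocytes (log2 difference 2.58, SE 0.43, adjusted p = 0.000473), and 5 of 8 Snrp genes rose. Sf1, which recognises the branch point, had 9.58 and 9.68 at MII, against 12.37 and 12.36 in GV oocytes (log2 difference -2.73, SE 0.39, adjusted p = 0.000182), and Ddx39b, an RNA helicase, had 4.79 and 5.84 at MII, against 9.21 and 9.13 in GV oocytes (log2 difference -3.86, SE 0.57, adjusted p = 0.000231). Srsf1 had 7.82 and 8.03 at MII, against 11.12 and 10.95 in GV oocytes (log2 difference -3.11, SE 0.38, adjusted p = 5.73e-05). Of RNA polymerase and general transcription factor genes 17 of 71 tested genes fell and 13 rose (median -0.66, 79 on the array, 14 lower and 14 higher without MII array 2), including 7 lower and 1 higher of 22 polymerase subunits. Taf13 had 12.25 and 12.57 at MII, against 11.02 and 11.10 in GV oocytes (log2 difference 1.35, SE 0.20, adjusted p = 0.00021), and Taf1a, of the RNA polymerase I factor, had 8.79 and 8.38 at MII, against 11.17 and 11.03 in GV oocytes (log2 difference -2.52, SE 0.35, adjusted p = 0.000158). Of nuclear pore and transport genes 8 of 55 tested genes fell and 10 rose (median -0.11, 56 on the array, 6 lower and 7 higher without MII array 2). Kpna2, an importin alpha, had 9.40 and 8.97 at MII, against 13.30 and 13.33 in GV oocytes (log2 difference -4.13, SE 0.32, adjusted p = 2.83e-06), the oocyte importin Kpna7 had 9.52 and 8.42 at MII, against 11.48 and 11.18 in GV oocytes (log2 difference -2.36, SE 0.44, adjusted p = 0.000999), and the pore protein Seh1l had 10.85 and 11.36 at MII, against 7.66 and 8.64 in GV oocytes (log2 difference 2.96, SE 0.48, adjusted p = 0.000433). Another Srsf1 probe set was called higher at MII (log2 difference 2.43, adjusted p = 0.0155).

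Chromatin genes changed in both directions. Of remodellers and bromodomain genes 9 of 51 tested genes fell and 17 rose (median 0.46, 54 on the array, 3 lower and 13 higher without MII array 2). The counts were 11 lower and 5 higher after median scaling and 12 and 0 on the deposited scale. Brwd3, with bromodomains, had 10.20 and 10.80 at MII, against 7.50 and 7.36 in GV oocytes (log2 difference 3.07, SE 0.35, adjusted p = 3.58e-05), and Chd1l had 1.41 and 3.40 at MII, against 8.41 and 8.16 in GV oocytes (log2 difference -5.87, SE 0.66, adjusted p = 3.39e-05). Of histone methyltransferases and demethylases 7 of 60 tested genes fell and 16 rose (median 0.37, 69 on the array, 6 lower and 11 higher without MII array 2), and 7 of 16 Kdm demethylases rose. This list had 11 lower and 4 higher after median scaling, and 13 and 0 on the deposited scale. Kdm7a had 10.71 and 11.65 at MII, against 8.73 and 8.33 in GV oocytes (log2 difference 2.65, SE 0.40, adjusted p = 0.000266). Setd4 had 9.50 and 8.87 at MII, against 13.34 and 13.02 in GV oocytes (log2 difference -3.99, SE 0.41, adjusted p = 1.65e-05). Of histone deacetylases and sirtuins 1 of 24 tested genes fell and 5 rose (median -0.23, 28 on the array, 0 lower and 4 higher without MII array 2), with Hdac9 at 9.55 and 10.18 at MII, against 6.60 and 6.16 in GV oocytes, and Sirt1 at 10.64 and 10.62 at MII, against 8.56 and 8.14 in GV oocytes. Of DNA methylation and imprint genes 2 of 18 tested genes fell and 3 rose (median -0.42, 20 on the array, 1 lower and 3 higher without MII array 2). Dnmt3b, a de novo methyltransferase, had 9.77 and 10.19 at MII, against 8.03 and 7.73 in GV oocytes (log2 difference 2.10, SE 0.35, adjusted p = 0.000449), and Dnmt1, which maintains methylation, had 12.36 and 12.55 at MII, against 13.53 and 13.55 in GV oocytes (log2 difference -1.08, SE 0.34, adjusted p = 0.0267). Dnmt3l, the cofactor of de novo methylation in oocytes, had 5.98 and 5.41 at MII, against 6.88 and 7.64 in GV oocytes, and did not pass (log2 difference -1.56, adjusted p = 0.154). The median of the DNA methylation list relative to all genes was -0.56 after quantile normalization and 0.03 as deposited. Dnmt1 did not pass without MII array 1 (adjusted p = 0.113), GV array 1 (adjusted p = 0.102), GV array 2 (adjusted p = 0.117) or MII array 2 (adjusted p = 0.0726). With median scaling Dnmt1 did not pass. Another Dnmt1 probe set was called lower at MII (log2 difference -3.03, adjusted p = 1.1e-05), and so was a further one (log2 difference -1.62, adjusted p = 0.0105). Dnmt3l did pass as lower on the deposited scale (adjusted p = 0.014) and after median scaling (adjusted p = 0.0157).

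Of DNA repair and recombination genes 15 of 68 tested genes fell and 17 rose (median -0.22, 74 on the array, 11 lower and 11 higher without MII array 2). Psmc3ip, a partner of the meiotic recombinases, had 3.50 and 1.51 at MII, against 9.95 and 9.90 in GV oocytes (log2 difference -7.42, SE 1.18, adjusted p = 0.00036), and Rpa3, of the single-strand binding complex, had 10.56 and 11.40 at MII, against 8.41 and 8.51 in GV oocytes (log2 difference 2.53, SE 0.39, adjusted p = 0.000316). Of Zfp zinc finger genes 22 of 227 tested genes fell and 47 rose (median 0.35, 331 on the array, 21 lower and 25 higher without MII array 2), shares close to those of all genes. Their median relative to all genes was 0.21 after quantile normalization and -0.04 as deposited. Of core clock genes 0 of 12 tested genes fell and 4 rose (median 0.78, 16 on the array, 0 lower and 3 higher without MII array 2), and relative to all genes their median was 0.64 after quantile normalization and -0.18 as deposited. Cry1, a repressor of the clock, had 11.41 and 11.50 at MII, against 9.57 and 9.79 in GV oocytes (log2 difference 1.77, SE 0.32, adjusted p = 0.000862). Of Bcl2 family genes and caspases 0 of 35 tested genes fell and 8 rose (median 0.13, 39 on the array, 0 lower and 5 higher without MII array 2), with Bnip2 at 8.89 and 8.86 at MII, against 6.29 and 5.93 in GV oocytes (log2 difference 2.76, SE 0.41, adjusted p = 0.000214). Of Mos and MAP kinase genes 1 of 10 tested genes fell and 2 rose (median -0.86, 13 on the array, 1 lower and 2 higher without MII array 2), and of egg calcium signalling genes 2 of 19 tested genes fell and 3 rose (median -0.34, 22 on the array, 1 lower and 2 higher without MII array 2). Camk2g, the calmodulin kinase that releases the egg from arrest at fertilization, had 6.54 and 4.59 at MII, against 10.22 and 10.45 in GV oocytes (log2 difference -4.77, SE 0.76, adjusted p = 0.000376). With median scaling Bnip2 did not pass. Its other probe sets were not called, with log2 differences of -0.04, -0.41 and 1.09. The Bcl2 family and caspase list had 5 lower and 2 higher after median scaling, and 8 and 0 on the deposited scale.

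**Figure D4:**
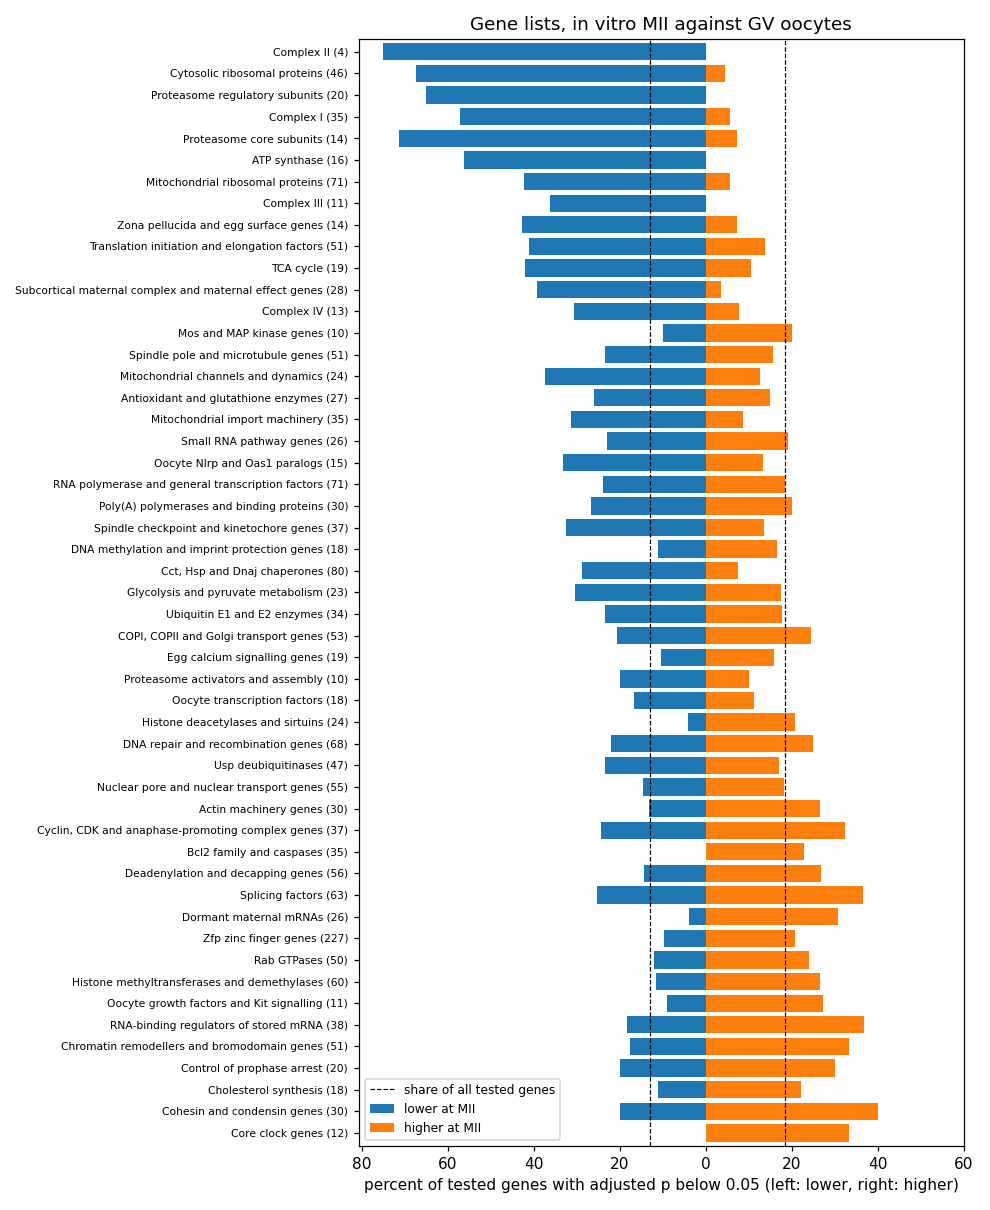
Percent of the tested genes of each list that were lower (left) or higher (right) on the in vitro MII arrays than on the GV arrays, ordered by list median, with the number tested in brackets. Dashed lines give the shares over all 12028 genes, 12.9% lower and 18.4% higher. Mitochondrial, ribosomal and proteasome lists reach furthest to the left, and cohesin and condensin genes reach furthest to the right.

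Several probe sets target the same gene in 4717 of the genes tested. Of the 1984 of these that were called, 815 had another probe set called in the same direction and 148 had one called in the opposite direction. For such a gene no single direction can be given, and where it is named above the opposing value stands beside it. Probe sets that were not called are mostly left out above, and some lay far from the one named. Examples are Hsd17b7, with others at log2 differences of 0.36 and 0.11, and Clvs2, with another at -0.97. Rec8, Eif4e1b and Itpr1, 3 further stage genes, were not among the tested genes.

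The in vitro matured oocytes were also set directly against 3 arrays of oocytes matured in vivo in B6D2F1 females of 7 to 8 weeks that had received hCG, an ovulatory hormone, 48 h after PMSG. This contrast holds no GV arrays but shares the in vitro arrays with the one above. Of 22519 probe sets 1 was lower in vitro (0.00444%) and none was higher by limma, and that probe set carried no single gene symbol. At an unadjusted p below 0.05 there were 1801 probe sets. Without the dim arrays 122 probe sets passed, and without in vitro array 1 412 passed, so the count rests on single arrays and does not show that the groups were alike. Zp3 had 9.25 and 8.77 in vitro, against 8.47, 9.08 and 9.17 in vivo (log2 difference 0.10, SE 0.35). Rps4x had 5.42 and 5.11 in vitro, against 7.36, 6.19 and 6.87 in vivo (log2 difference -1.55, SE 0.42), and ND5 had 11.93 and 13.26 in vitro, against 12.72, 10.95 and 11.53 in vivo (log2 difference 0.86, SE 0.54). None of these 3 genes passed, and in vivo array 1 was itself dim. Summed leukocyte markers were 235 and 213 in vitro, against 1919, 1046 and 838 in vivo.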

How the data were processed

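Poly(A)+ RNA of pooled mouse oocytes was measured on Affymetrix arrays. The deposited values are intensities on a linear scale for 45101 probe sets on 15 arrays, which the authors computed with MAS5, a tool named in the submitters' processing notes. The sources used here give neither the MAS5 version nor a scaling target. Log2 of the deposited intensities was taken, 64 control probe sets were left out, and the values were quantile normalized over all 15 arrays. The 22519 probe sets in the upper 50% by mean over all arrays were tested in R 4.3.3 with limma 3.58.1, fitting the means of all 6 groups with an intensity trend, 9 residual degrees of freedom and Benjamini-Hochberg adjustment of the p-value at 0.05. The method was tested on simulated data. Marker genes were tested without the filter.

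Of all probe sets 34958 had 1 gene symbol in the platform annotation, 932 had several and 9211 had none, and 34754 symbols were updated through the GRCm38.p6 gene table. A gene stands for its tested probe set with the highest mean. The rule for named genes takes the 12 largest rises and falls without overlap and with both means over the filter level, up to 3 called genes of each list in each direction, and a set of stage genes; it gives 307 genes, of which 177 are described, beside 7 picked after their values were seen and named as such. The members, the gene lists and the rule were chosen with earlier results of these data known. The alternatives were other scalings, filters, a pseudocount, variance models and leaving out arrays. The number of arrays limits the precision.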

Additional observations from a re-analysis of the deposited data

How the results depend on the processing

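No paired analysis was possible because the numbers in the labels' titles each occur once, so the groups share no replicate number. The count of 3607 probe sets higher at MII became 11 with the values as deposited and 1305 with median scaling, and the count of 2641 lower became 6094 and 4396. Leaving out 1 array gave 2255 to 3059 higher and 1540 to 2840 lower, with the fewest in both directions without GV array 2, and 1631 lower without GV array 1. With no filter, a filter at the upper 30% or on the 4 arrays, a pseudocount of 16, only the compared arrays, no intensity trend, array weights and without the dim arrays both counts stayed within 1.5 times. For in vitro against in vivo the 1 probe set became 0 with the values as deposited, the upper 30%, the filter on the 4 arrays, the pseudocount, only the compared arrays and array weights, 5 with no intensity trend and 122 without the dim arrays. Leaving out 1 array gave 0 to 412 there. The cause of these shifts was not tested.

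Of the genes described that passed in the report's test, 88 of 88 falls passed with the values as deposited. With median scaling 87 of 88 did, the exception being Dnmt1. The median gene was itself shifted by -1.93 as deposited and by -0.52 with median scaling. Both scalings thus favour falls, and these counts do not test them. Of the 77 rises, 69 passed with median scaling. As deposited, 6 passed, which were the 6 genes named for that in the report, and 54 kept a positive difference without passing. The others turned negative without passing, with log2 differences of Ago3 (-0.48), Bmpr2 (-0.16), Bnip2 (-0.12), Cdh1 (-0.26), Cnot6l (-0.20), Dicer1 (-0.51), Dnmt3b (-0.36), Eif4e (-0.099), Hprt (-0.0095), Itga6 (-0.44), Kif5b (-0.036), Kitl (-0.057), Nlrp4c (-1.10), Nr5a2 (-1.35), Prkar2b (-0.23), Rpl13a (-0.77) and Sod2 (-0.22). Of 19 genes described as not passing, 5 passed with median scaling, 6 as deposited and 5 without the dim arrays. Leaving out 1 array at a time kept 85 to 86 of the falls and 71 to 76 of the rises. Signal near the filter level of 3.07 leaves the size of the deepest falls imprecise.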
